A study of Homo sapiens with 24 samples.

Results

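Asparagine, aspartate and alanine are made and broken down by a small set of enzymes, and 9 of them are described here among the 58735 genes of the deposited table: ASNS, ASRGL1, ASS1, ASL, GOT1, GOT2, GPT2, PC and PCK2. They were picked by gene name, over all 8 groups, with no rule on their values but with earlier results of these data known. RNA sequencing was done on 2 established leukaemia lines, Nalm6 and Sem, both from acute lymphoblastic leukaemia of early B lineage; in Sem the KMT2A gene is rearranged. Cultures stayed without drug (untreated) or were kept for 24 h with 10 µM ibrutinib, an inhibitor of Bruton's tyrosine kinase, with asparaginase, an enzyme drug that breaks down asparagine outside the cell, or with both drugs (the combination), with 3 libraries in each of the 8 groups. No allele, transgene or added agent beyond these drugs is named for any group. The asparaginase dose is 1 IU/ml in the sample characteristics and 0.5 IU/ml in the protocol text. Separate cultures are not described for the triplicates, so the spread behind each p-value is that between libraries and may be technical.

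Levels are given in FPKM, the fragments of a gene scaled to its length in kilobases and to the depth of the library, so levels of different genes are set side by side per length. Deposited values of 1 or more had lost their decimal point and were restored from gene length and whole reads. The libraries held 15032809 to 18135795 reads assigned to genes, and in the median library a single read was worth 0.0601 FPKM for a gene 1 kb long. All 10 B cell precursor markers reached 1 FPKM in Nalm6 and 8 of 10 did in Sem, while HOXA9, HOXA10 and MEIS1, expressed in KMT2A-rearranged leukaemia, were at 0 in Nalm6 and summed to 59.7 to 67.2 FPKM in Sem. Of 9 myeloid genes, ELANE, S100A8 and S100A9 were at 0 in all 24 libraries and the list summed to 6.82 to 16.6 FPKM in Nalm6, where LYZ was highest, and 2.72 to 7.04 in Sem. Of 8 T and NK cell genes, CD3D and CD3E were at 0 throughout and the list summed to 1.47 to 11.7 FPKM in Nalm6 and 84.2 to 124 in Sem, mostly TRAC. SDC1, a plasma cell gene, averaged 18.7 FPKM in Nalm6. The part of such cells or genes in the results was not tested. In Nalm6, libraries untreated 2, asparaginase 1 and combination 1 correlated least within their groups of 3 and had trends with GC content of the opposite sign to the other libraries there, and calls that change without 1 or all 3 of them are named below. In RNA from whole cultures, fewer cells with a transcript and less of it per cell cannot be told apart.

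Asparagine synthetase (ASNS) makes asparagine from aspartate, with glutamine as the nitrogen donor, and ASRGL1 releases aspartate from asparagine. Leukaemic lymphoblasts are known for low ASNS and for their need of outside asparagine, which is the basis of asparaginase therapy. Aspartate is formed from oxaloacetate by the glutamate-oxaloacetate transaminases, GOT1 in the cytosol and GOT2 in mitochondria, and is joined to citrulline by ASS1, after which ASL splits the product into arginine and fumarate. GPT2 makes alanine from pyruvate in mitochondria, PC makes oxaloacetate from pyruvate, and PCK2 turns mitochondrial oxaloacetate into phosphoenolpyruvate. When an amino acid is short, uncharged tRNA activates the kinase GCN2, translation slows, and the transcription factor ATF4 is made and binds C/EBP-ATF response elements.

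The core of that element was searched as TGATGNAA on both strands in the 250 bases before each RefSeq start on GRCh38.p14. The table held 12 promoters of 8 of the 9 genes, and 2 of the 12 had a match, 1 of ASNS and 1 of GOT1. Of all 35116 promoters searched, 3.14% had one. The 30 bases around each match are shown because both genes rose with asparaginase in both lines. PCK2 and GPT2 also rose in both lines: the PCK2 promoter had no match, and GPT2 had no promoter among those searched. Capitals mark the match.
ASNS: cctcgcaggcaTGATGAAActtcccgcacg
GOT1: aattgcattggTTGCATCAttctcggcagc
The ASNS stretch lies at chr7:97872458-97872487 on the minus strand, its match starts 68 bases before the RefSeq start, and it falls in the 5′ UTR exon of 4 ASNS transcripts of GENCODE 29. The GOT1 stretch lies at chr10:99430804-99430833 on the minus strand, with its match starting 198 bases before the RefSeq start, and falls in the 5′ UTR exon of 1 GOT1 transcript. That match reads in the opposite direction to the gene. A match is a description of letters and not a site of binding.

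The genes did not move as 1 group. With asparaginase, ASNS, GOT1, GPT2 and PCK2 rose and GOT2 fell in both lines, and in Nalm6 ASS1 and ASL also rose and PC also fell. All 8 tested genes passed the test in Nalm6 (6 higher and 2 lower) and 5 of 7 did in Sem (4 higher and 1 lower), where 56.3% and 26.4% of all genes tested passed it. The test was limma on log2(FPKM + 1), with p-values adjusted over all genes tested and a threshold of 0.05. Genes with at least 1 FPKM in at least 3 libraries were tested. ASNS reached that level only with asparaginase or the combination, so its place in these and later counts and medians depends on the groups where it is high. The Nalm6 count includes ASS1, whose direction rests on an inferred decimal place: with the other place it would be 5 higher and 3 lower, with a median change of 0.41. As restored, the median change of the tested members was 0.58 in Nalm6 and 0.65 in Sem, on that log2 scale, where the median over all genes was 0.02 and -0.00.

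**Figure D1:**
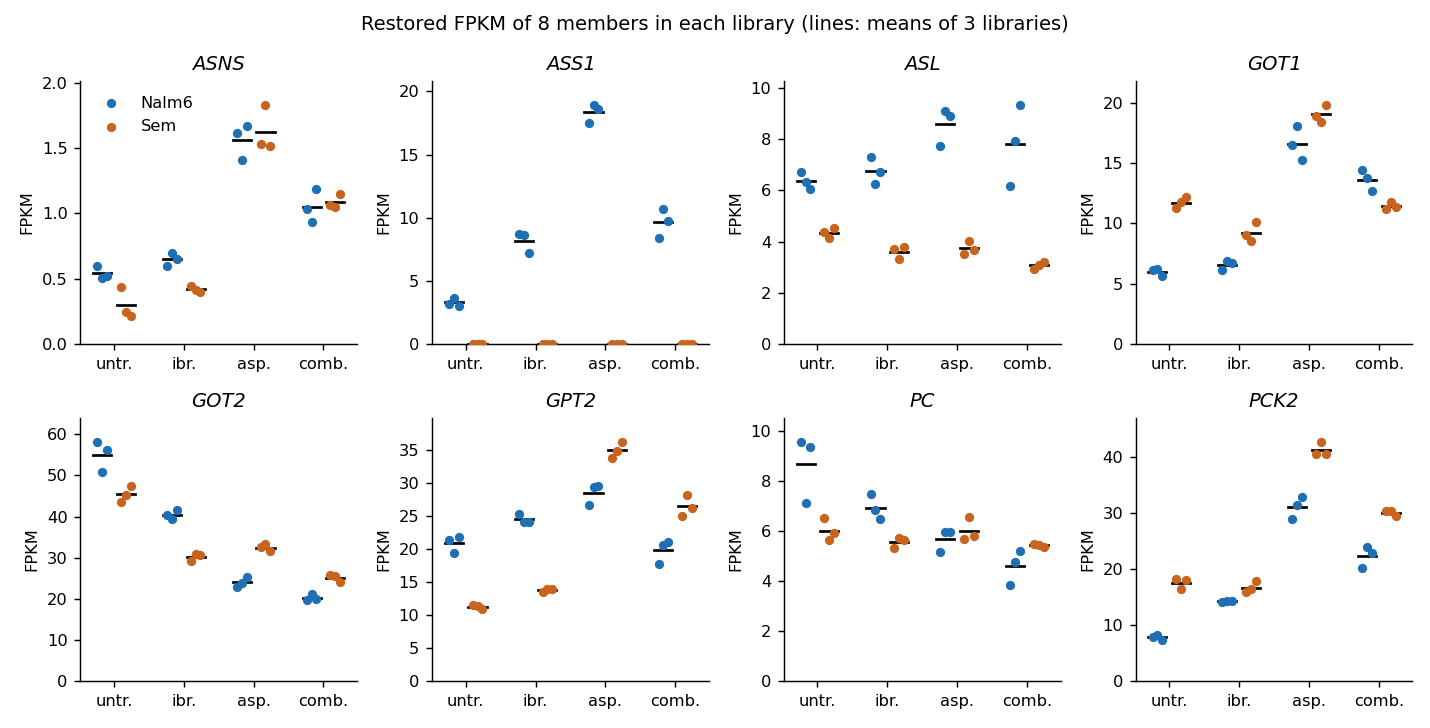
Restored FPKM (y axis, from 0) of the 8 genes with reads, by treatment (x axis: untreated, ibrutinib, asparaginase, combination); each point is 1 library, blue for Nalm6 and orange for Sem, and black lines are means of 3 libraries. ASNS, GOT1, GPT2 and PCK2 stand highest with asparaginase in both lines, GOT2 stands highest in untreated cells, and ASS1 lies at or near 0 in every Sem library.

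ASNS was among the lowest of the genes and rose with asparaginase in both lines. In Nalm6 it stood at 0.600, 0.506 and 0.520 FPKM in the untreated libraries, 0.594, 0.701 and 0.654 with ibrutinib, 1.62, 1.41 and 1.67 with asparaginase, and 1.04, 0.933 and 1.19 with the combination. In Sem the values were 0.434, 0.243 and 0.219 untreated, 0.449, 0.413 and 0.396 with ibrutinib, 1.53, 1.83 and 1.51 with asparaginase, and 1.07, 1.05 and 1.15 with the combination. Asparaginase and combination libraries lay above every untreated and ibrutinib library of their line, while untreated and ibrutinib libraries overlapped. Counts behind these values were small, 35 to 142 reads in Nalm6 and 16 to 140 in Sem.

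The mean rose 2.89-fold with asparaginase in Nalm6 (from 0.542 ± 0.050 to 1.57 ± 0.14 FPKM, SD, n = 3 each) and 5.44-fold in Sem (from 0.299 ± 0.118 to 1.62 ± 0.18 FPKM). On the log2(FPKM + 1) scale, which understates the change of a gene this low, the rises were 0.73 ± 0.09 (SE; limma adjusted p = 5.4e-05) and 1.02 ± 0.11 (adjusted p = 5.6e-05). ASNS entered the test only through its asparaginase and combination libraries, the ones with 1 FPKM or more. The combination gave 0.41 ± 0.09 in Nalm6 (adjusted p = 0.0023) and 0.69 ± 0.11 in Sem (adjusted p = 0.00024). Quantile normalization took the Nalm6 value to 0.14 (adjusted p = 0.22).

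With the combination, ASNS was lower than with asparaginase alone, by 1.49-fold in each line by group means. The log2 changes were -0.32 ± 0.09 in Nalm6 (limma adjusted p = 0.029) and -0.33 ± 0.11 in Sem (adjusted p = 0.031). These calls were weak: leaving out Nalm6 asparaginase 1 or 3 or combination 1 or 2 took the adjusted p to between 0.065 and 0.10 (0.14 without the 3 libraries that stood apart), and leaving out any 1 of the 6 Sem libraries compared took it to between 0.055 and 0.11. When 0.1 FPKM was added before the log in place of 1, the change was -0.53 in each line and did not pass. The limma adjusted p was then 0.058 in Nalm6 and 0.13 in Sem. With ibrutinib alone ASNS changed by 0.10 ± 0.09 in Nalm6 (adjusted p = 0.52) and 0.13 ± 0.11 in Sem (adjusted p = 0.35).

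The ASNS gene (chr7:97852118-97872542, minus strand) shares 44.6% of its exon bases with AC079781.5, a processed transcript on the same strand. How shared reads were counted is not stated, so the ASNS level may be too low, and the 2 genes cannot be fully told apart. AC079781.5 stood at 1.19 ± 0.24 FPKM in untreated Nalm6 and 1.56 ± 0.21 with asparaginase (SD, n = 3 each), and at 0.469 ± 0.147 and 0.696 ± 0.197 FPKM in Sem. Its asparaginase libraries lay above the untreated ones in Nalm6 and overlapped them in Sem.

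ASRGL1 (chr11:62337448-62393412) had 0 reads in all 24 libraries. Its antisense neighbours AP003064.1 and AP003306.2 were also at 0. At this depth, 3 reads would stand for 0.034 to 0.045 FPKM, so no change of ASRGL1 was detectable and it was not tested.

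ASS1, which joins citrulline and aspartate, was expressed in Nalm6 and all but absent from Sem, and its level in untreated Nalm6 rests on an inferred decimal place. As restored, it stood at 3.21, 3.68 and 3.06 FPKM in the untreated Nalm6 libraries, 8.68, 8.62 and 7.25 with ibrutinib, 17.5, 18.9 and 18.6 with asparaginase, and 8.43, 10.7 and 9.72 with the combination. No untreated library overlapped a treated one, and the ibrutinib and combination libraries overlapped each other. Group means were 2.47-fold higher with ibrutinib, 5.53-fold with asparaginase and 2.90-fold with the combination than in untreated cells. The log2 changes were 1.09 ± 0.09 (SE; limma adjusted p = 8.5e-05), 2.16 ± 0.09 (adjusted p = 2.0e-08) and 1.30 ± 0.09 (adjusted p = 3.5e-07).

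The untreated values are whole numbers of reads at 3.2 FPKM (141 to 174 reads) and also at 10 times that level. Scored without the row order, on set scales for replicate spread and drug effects, the higher level was the more probable, with a posterior of 0.726. The order of the rows was used to choose the lower one. Genes are listed in the deposited table roughly by falling level, with some far below their neighbours: the 500 genes around ASS1 had means over the 24 libraries from 0.0031 to 5.15 FPKM, with a median of 4.10 and a 99th percentile of 4.97. The order thus serves only as an upper bound. At the lower level the ASS1 mean was 4.94 FPKM, and at the higher level it would be 8.67, or 1.74 times that percentile. Of 14750 genes set against their neighbours in this way, none had a mean above 1.04 times the percentile after restoration. The restoration itself penalized means above that percentile, so this maximum is no independent support for the lower level. The penalty had changed 4 genes, ASS1 among them. The order entered the restoration as a penalty of a set size, so no probability is read from it, and the lower level remains an inference and not a deposited value.

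If untreated Nalm6 stood 10 times higher all the same, the direction against untreated cells would turn. The changes would then be -1.89 with ibrutinib (limma adjusted p = 1.4e-06), -0.82 with asparaginase (2.8e-05) and -1.69 with the combination (6.4e-08). The changes among treated libraries do not use the untreated values, though their SE and p come from a fit of all 12 Nalm6 libraries. The decimal places of the treated libraries are inferred too. Without the row order, the posterior was 0.975 for the combination libraries and higher for the other treated ones. As restored, ASS1 was 1.90-fold lower with the combination than with asparaginase (log2 change -0.87 ± 0.09, limma adjusted p = 9.7e-05). Against ibrutinib alone the combination differed by 0.21 ± 0.09 (adjusted p = 0.071), and by 0.29 (adjusted p = 0.015) without Nalm6 combination 1.

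**Figure D2:**
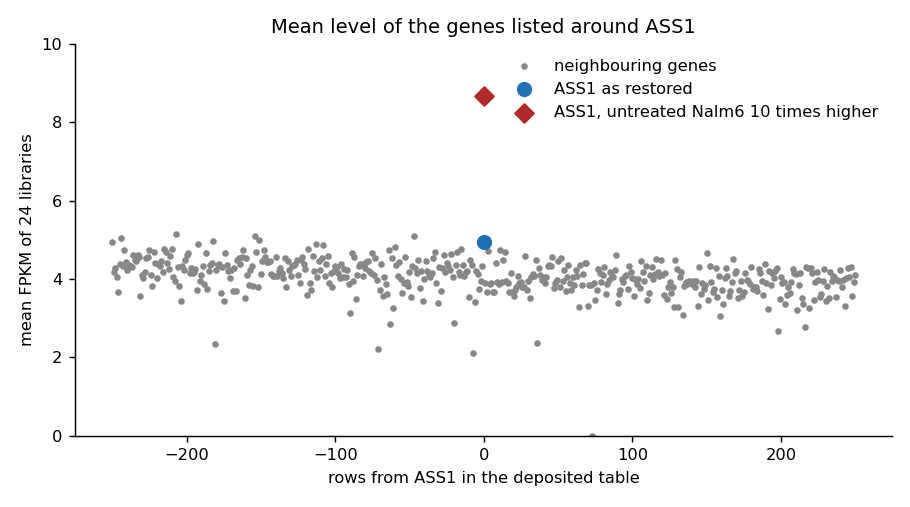
Mean FPKM over the 24 libraries (y axis) of the 500 genes listed around ASS1 in the deposited table, by their distance from it in rows (x axis; grey points), with ASS1 as restored (blue, 4.94) and with its untreated Nalm6 libraries 10 times higher (red, 8.67). The restored value lies at the upper edge of its neighbours, and the alternative lies above all of them.

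In Sem, ASS1 had 0 reads in the untreated and ibrutinib libraries, 2, 1 and 2 reads in the asparaginase libraries and 1, 0 and 0 in the combination. These counts are at or below 3 reads a library, so no change within Sem was tested. Set against a floor of 3 reads per library, Nalm6 was at least 54.0-fold higher than Sem when untreated and at least 296-fold higher with asparaginase. The gene (chr9:130444929-130501274) has 11 pseudogene copies by name, which together held 1.19% as many reads as ASS1, and how reads that fit several copies were counted is not stated.

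ASL, the next enzyme toward arginine, moved little and in different directions. In Nalm6 it stood at 6.71, 6.33 and 6.05 FPKM untreated, 7.31, 6.24 and 6.72 with ibrutinib, 7.73, 9.09 and 8.91 with asparaginase, and 6.17, 7.92 and 9.33 with the combination. The asparaginase libraries lay above the untreated ones, and the combination libraries spread from 6.17 to 9.33 and overlapped all other groups. With asparaginase ASL rose 1.35-fold (log2 change 0.38 ± 0.12, limma adjusted p = 0.017), but without Nalm6 untreated 3, asparaginase 2 or asparaginase 3 the adjusted p was 0.052 to 0.057. The combination differed from untreated by 0.24 ± 0.12 (adjusted p = 0.087), and by 0.38 (adjusted p = 0.0036) without Nalm6 combination 1. Against ibrutinib alone it differed by 0.17 ± 0.12 (adjusted p = 0.23), and by 0.31 (0.013) without that library.

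In Sem, ASL stood at 4.39, 4.14 and 4.52 FPKM untreated, 3.70, 3.32 and 3.81 with ibrutinib, 3.53, 4.03 and 3.66 with asparaginase, and 2.95, 3.10 and 3.22 with the combination. Every treated library lay below the untreated ones. The combination fell 1.41-fold (log2 change -0.39 ± 0.06, limma adjusted p = 0.00029) and ibrutinib 1.20-fold (-0.22 ± 0.06, adjusted p = 0.015). The ibrutinib call was lost without Sem untreated 3 (adjusted p = 0.055) or ibrutinib 2 (0.062). With asparaginase the change was -0.17 ± 0.06 (adjusted p = 0.056), and it passed without Sem asparaginase 2 (-0.22, adjusted p = 0.039) or ibrutinib 2 (0.048). ASL (chr7:66075798-66093558) shares 17.6% of its exon bases with AC068533.4 on the same strand, which averaged 0.125 FPKM.

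The cytosolic and mitochondrial transaminases of aspartate went in opposite directions with asparaginase. GOT1, the cytosolic enzyme, stood in Nalm6 at 6.17, 6.20 and 5.66 FPKM untreated, 6.16, 6.86 and 6.73 with ibrutinib, 16.5, 18.1 and 15.3 with asparaginase, and 14.5, 13.8 and 12.7 with the combination. In Sem it stood at 11.3, 11.8 and 12.2 FPKM untreated, 9.04, 8.55 and 10.1 with ibrutinib, 18.9, 18.4 and 19.8 with asparaginase, and 11.2, 11.8 and 11.4 with the combination. Asparaginase libraries lay above all untreated ones in both lines, and combination libraries did so in Nalm6 but overlapped the untreated ones in Sem.

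GOT1 rose 2.77-fold with asparaginase in Nalm6 (log2 change 1.33 ± 0.07, limma adjusted p = 1.0e-07) and 1.62-fold in Sem (0.65 ± 0.06, adjusted p = 1.3e-05). With the combination it rose 2.27-fold in Nalm6 (1.06 ± 0.07, adjusted p = 2.3e-07), whereas in Sem the change was -0.03 ± 0.06 (adjusted p = 0.66). Ibrutinib alone lowered GOT1 in Sem by 1.27-fold (-0.32 ± 0.06, adjusted p = 0.00099), and in Nalm6 the change was 0.11 ± 0.07 (adjusted p = 0.32). GOT1 (chr10:99396870-99431569) shares 19.3% of its exon bases with AL391684.1 on the opposite strand, which averaged 0.308 FPKM.

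GOT2, the mitochondrial enzyme, had the highest level per length of the 9 genes in the untreated and ibrutinib libraries of both lines. Its values in Nalm6 were 58.2, 50.7 and 56.3 FPKM untreated, 40.4, 39.5 and 41.5 with ibrutinib, 22.9, 23.9 and 25.4 with asparaginase, and 19.6, 21.1 and 19.99 with the combination. In Sem they were 43.6, 45.4 and 47.5 FPKM untreated, 29.1, 30.8 and 30.7 with ibrutinib, 32.5, 33.3 and 31.5 with asparaginase, and 25.8, 25.5 and 24.0 with the combination. No treated library of either line overlapped an untreated one, and the combination libraries were the lowest in each line.

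GOT2 fell with every treatment in both lines. The log2 changes in Nalm6 were -0.43 ± 0.06 with ibrutinib (limma adjusted p = 0.0013), -1.16 ± 0.06 with asparaginase (adjusted p = 7.2e-08) and -1.40 ± 0.06 with the combination (adjusted p = 7.1e-09). In Sem they were -0.57 ± 0.04 (adjusted p = 2.8e-06), -0.47 ± 0.04 (adjusted p = 2.0e-05) and -0.83 ± 0.04 (adjusted p = 8.0e-08). Asparaginase thus lowered the mean 2.29-fold in Nalm6 and 1.40-fold in Sem. The level of GOT2 over that of GOT1, per length, was 9.19 ± 0.91 in untreated Nalm6 and 1.46 ± 0.18 with asparaginase (SD, n = 3 each). In Sem the same ratio was 3.88 ± 0.02 and 1.71 ± 0.11.

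GPT2, which makes alanine from pyruvate and glutamate, responded more to asparaginase in Sem. Nalm6 libraries held 21.4, 19.3 and 21.8 FPKM untreated, 25.3, 24.1 and 24.1 with ibrutinib, 26.6, 29.4 and 29.6 with asparaginase, and 17.7, 20.6 and 21.1 with the combination. Sem libraries held 11.5, 11.3 and 10.9 FPKM untreated, 13.5, 14.0 and 14.0 with ibrutinib, 33.8, 34.9 and 36.2 with asparaginase, and 25.0, 28.1 and 26.2 with the combination. In Sem the 4 groups did not overlap, and in Nalm6 the combination overlapped the untreated libraries.

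With asparaginase GPT2 rose 1.37-fold in Nalm6 (log2 change 0.44 ± 0.07, limma adjusted p = 0.00039) and 3.11-fold in Sem (1.56 ± 0.04, adjusted p = 2.2e-09). The change with the combination was -0.07 ± 0.07 in Nalm6 (adjusted p = 0.39) and a rise of 1.16 ± 0.04 in Sem (adjusted p = 1.3e-08). Ibrutinib alone raised GPT2 in Sem by 0.28 ± 0.04 (adjusted p = 0.00059). In Nalm6 the ibrutinib value was 0.23 ± 0.07 (adjusted p = 0.066), and 0.23 with an adjusted p of 0.023 without Nalm6 combination 1. The gene (chr16:46884378-46931297) shares no exon bases with another gene.

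PCK2, the mitochondrial phosphoenolpyruvate carboxykinase, became the most abundant of the 9 genes per length in the asparaginase and combination groups of both lines. In Nalm6 it stood at 7.88, 8.26 and 7.22 FPKM untreated, 14.1, 14.2 and 14.3 with ibrutinib, 28.9, 31.3 and 32.7 with asparaginase, and 20.1, 23.8 and 22.8 with the combination. Its values in Sem were 18.2, 16.3 and 18.0 FPKM untreated, 15.8, 16.3 and 17.8 with ibrutinib, 40.4, 42.6 and 40.4 with asparaginase, and 30.2, 30.3 and 29.3 with the combination. The 4 Nalm6 groups did not overlap, and in Sem the untreated and ibrutinib libraries overlapped.

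Asparaginase raised PCK2 3.98-fold in Nalm6 (log2 change 1.86 ± 0.07, limma adjusted p = 1.0e-08) and 2.35-fold in Sem (1.19 ± 0.05, adjusted p = 4.6e-08). With the combination the rises were 2.85-fold (1.40 ± 0.07, adjusted p = 2.8e-08) and 1.71-fold (0.75 ± 0.05, adjusted p = 5.7e-07). Ibrutinib alone raised PCK2 1.82-fold in Nalm6 (0.79 ± 0.07, adjusted p = 0.00011), and the Sem value was -0.07 ± 0.05 (adjusted p = 0.31). PCK2 (chr14:24094053-24110598) shares no exon bases with another gene.

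PC, pyruvate carboxylase, fell in Nalm6 and did not pass the test in Sem. The Nalm6 values were 9.58, 7.12 and 9.38 FPKM untreated, 7.48, 6.83 and 6.47 with ibrutinib, 5.17, 5.95 and 5.96 with asparaginase, and 3.85, 4.76 and 5.20 with the combination. In Sem all 12 libraries lay between 5.31 and 6.54 FPKM. Untreated Nalm6 2, which correlated least with its group, was the lowest untreated value but still lay above every asparaginase and combination library.

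PC fell 1.53-fold with asparaginase in Nalm6 (log2 change -0.53 ± 0.12, limma adjusted p = 0.0026) and 1.89-fold with the combination (-0.79 ± 0.12, adjusted p = 0.00012). With ibrutinib the change was -0.28 ± 0.12 (adjusted p = 0.14), and -0.40 with an adjusted p of 0.035 without Nalm6 untreated 2. In Sem the changes were -0.10 ± 0.06 with ibrutinib, -0.00 ± 0.06 with asparaginase and -0.13 ± 0.06 with the combination (adjusted p = 0.22, 0.98 and 0.098). PC (chr11:66848233-66958376) shares 10.5% of its exon bases with LRFN4 on the opposite strand, and whether strand was used in counting is not stated. LRFN4 stood at 30.7 ± 3.4 FPKM in untreated Nalm6, 19.8 ± 2.3 with asparaginase and 17.7 ± 4.1 with the combination (SD, n = 3 each), and its part in the PC values was not tested.

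**Figure D3:**
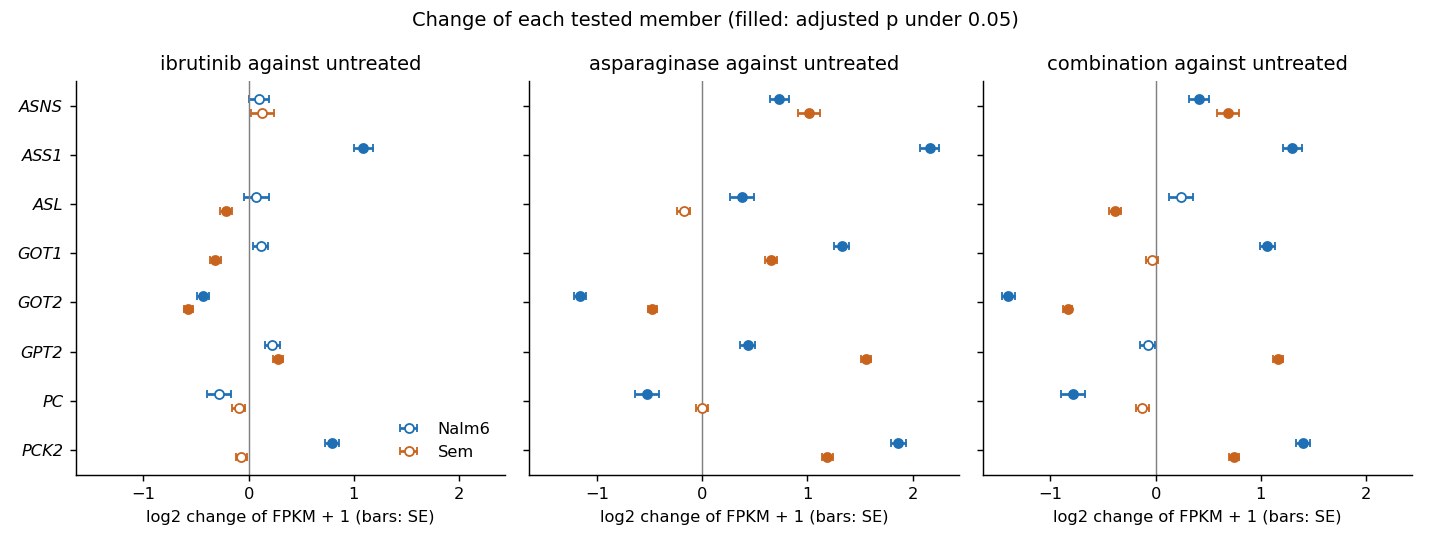
Change of each tested gene against untreated cells on the log2(FPKM + 1) scale (x axis; bars are SE), for ibrutinib, asparaginase and the combination; filled points passed an adjusted p of 0.05, blue is Nalm6 and orange is Sem. GOT2 lies left of 0 in all 6 sets, PCK2 and ASS1 lie farthest right in Nalm6 with asparaginase, and GPT2 does so in Sem; ASS1 was not tested in Sem.

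Adding ibrutinib to asparaginase lowered most of the genes, among them ASNS, GOT1, GPT2 and PCK2, which had risen with asparaginase in both lines, and GOT2, which had fallen. In each line 6 genes were lower with the combination than with asparaginase alone and 0 were higher, out of 8 tested in Nalm6 and 7 in Sem (21.8% and 38.3% of all genes tested passed in either direction). ASNS, GOT1, GOT2, GPT2 and PCK2 were in both sets of 6, with ASS1 in Nalm6 and ASL in Sem. GPT2 fell by 0.51 ± 0.07 in Nalm6 (limma adjusted p = 0.00067) and by 0.39 ± 0.04 in Sem (adjusted p = 5.1e-05). PCK2 fell by 0.46 ± 0.07 (adjusted p = 0.00096) and by 0.45 ± 0.05 (adjusted p = 5.0e-05). GOT1 fell by 0.27 ± 0.07 in Nalm6 (adjusted p = 0.020) and by 0.69 ± 0.06 in Sem (adjusted p = 4.4e-06). In Nalm6 the GOT1 call was lost without asparaginase 2 (adjusted p = 0.081) or combination 3 (0.072), and the GOT2 call (-0.24 ± 0.06, adjusted p = 0.014) without asparaginase 3 (0.061). In Sem the ASL call (-0.21 ± 0.06, adjusted p = 0.018) was lost without asparaginase 2 (0.070) or combination 1 (0.065).

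The interaction compares the combination with both single drugs: their 2 log2 changes are added and taken away from that of the combination. It passed the threshold below 0 for 3 genes in each line and above 0 for 0. In either direction, 5.58% of all genes tested in Nalm6 and 1.53% in Sem passed. PCK2 had -1.25 ± 0.10 in Nalm6 (limma adjusted p = 9.8e-05) and -0.38 ± 0.07 in Sem (adjusted p = 0.030). GPT2 had -0.74 ± 0.10 (adjusted p = 0.0028) and -0.67 ± 0.06 (adjusted p = 0.00063). ASS1 had -1.96 ± 0.13 in Nalm6 (adjusted p = 3.8e-05), which would be 1.03 with its untreated libraries 10 times higher, and GOT1 had -0.37 ± 0.08 in Sem (adjusted p = 0.047). The Sem count fell from 3 to 1, GPT2, when Sem untreated 3, ibrutinib 3 or any 1 of the asparaginase or combination libraries was left out. GOT1 in Nalm6 missed the threshold (-0.38 ± 0.10, adjusted p = 0.051) and passed it without combination 1 (0.035) or asparaginase 3 (0.044). Without the 3 Nalm6 libraries that stood apart, 4 genes passed below 0 and GOT2 passed above it (0.24, adjusted p = 0.043, against 0.19 ± 0.08 and 0.21 with all libraries).

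Ibrutinib alone changed 3 of 8 tested genes in Nalm6 and 4 of 7 in Sem, against 12.4% and 41.5% of all genes tested. In Nalm6 PCK2 and, as restored, ASS1 rose and GOT2 fell (ASS1 -1.89 at the other decimal place), and in Sem GPT2 rose and GOT1, GOT2 and ASL fell. Against untreated cells the combination changed 6 of 8 in Nalm6 (63.7% of all genes) and 5 of 7 in Sem (52.9%). Against ibrutinib alone it changed 6 of 8 in Nalm6 (3 higher and 3 lower; 57.1% of all genes) and 5 of 7 in Sem (4 higher and 1 lower; 12.1%). ASNS, GOT1 and PCK2 were higher and GOT2 lower than with ibrutinib alone in both lines, while GPT2 was lower in Nalm6 (-0.30 ± 0.07, limma adjusted p = 0.0043) and higher in Sem (0.89 ± 0.04, adjusted p = 4.3e-07). The Nalm6 ASNS call (0.31 ± 0.09, adjusted p = 0.013) was lost without combination 3 (0.056), and it and the Nalm6 GPT2 call were lost with quantile normalization (0.15 and 0.077).

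The lines differed before any drug in all 8 genes tested, where 65.9% of all genes tested differed. Untreated Sem had 2.25-fold more PCK2 and 1.95-fold more GOT1 than untreated Nalm6 (log2 differences 1.07 ± 0.06 and 0.86 ± 0.06, limma adjusted p = 5.7e-12 and 3.2e-10). GPT2, ASNS, ASL, PC and GOT2 were lower in Sem by 1.86-, 1.81-, 1.46-, 1.44- and 1.21-fold, with adjusted p-values from 2.3e-10 to 0.0052. For ASS1 the value of -2.11 ± 0.07 on the log2(FPKM + 1) scale only restates the Nalm6 level, since untreated Sem had 0 reads, and it would be -5.09 at the other decimal place. With asparaginase the ASNS means were 1.57 and 1.62 FPKM in Nalm6 and Sem and the libraries of the lines overlapped.

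Tested as differences between the lines, the effects of asparaginase and of the combination passed for all 8 genes, where 33.5% and 40.8% of all genes tested did, and the effect of ibrutinib for 3 (13.7%). ASS1 is among them only through Nalm6, with at most 2 reads in a Sem library, and the sign of its differences turns with the decimal place (asparaginase -2.12 or 0.87). For PC the ibrutinib effect differed by 0.19 ± 0.13 (adjusted p = 0.42), and by 0.31 (0.020) without the 3 Nalm6 libraries that stood apart. The rise of GPT2 with asparaginase was larger in Sem by 1.12 ± 0.09 (limma adjusted p = 1.1e-08), and those of PCK2 and GOT1 were smaller in Sem by 0.67 ± 0.09 each (adjusted p = 8.4e-06 and 1.2e-05). GOT2 fell less in Sem, by 0.69 ± 0.07 (adjusted p = 5.7e-07). The ASNS difference, 0.28 ± 0.10, was close to the threshold (adjusted p = 0.041) and was lost when any of 7 single libraries was left out, 4 of Nalm6 (untreated 1 and 3, asparaginase 1 and 2) and 3 of Sem (untreated 2 and 3, asparaginase 2), with adjusted p-values of 0.051 to 0.11 (0.062 without the 3 that stood apart). In the combination the ASNS difference of 0.28 ± 0.10 (adjusted p = 0.038) was lost without Nalm6 untreated 1 or 3, Nalm6 combination 1 or 2, Sem untreated 2 or 3 or Sem combination 1 or 3 (0.052 to 0.099), and without the 3 that stood apart (0.074).

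Other genes of these pathways are given from 6 lists. The 10 regulators of the amino acid response, ATF4 and genes that act with it or under it, all rose with asparaginase and with the combination in both lines. Of all genes tested, 28.3% rose with asparaginase in Nalm6 and 11.4% in Sem, and 32.4% and 26.6% with the combination. Their median change with asparaginase was 1.73 in Nalm6 and 1.40 in Sem. TRIB3, a pseudokinase induced by ATF4, went from 23.0 to 174 FPKM in Nalm6 (log2 change 2.86 ± 0.11) and from 2.60 to 24.4 in Sem (2.83 ± 0.11). CHAC1, which breaks down glutathione, went from 1.65 to 24.0 FPKM in Sem, and DDIT3 (CHOP) from 10.1 to 63.3 FPKM in Nalm6. With ibrutinib alone 8 of the 10 rose in Nalm6 and 0 fell, while in Sem 1 rose and 3 fell; 4.98% of all genes rose and 7.46% fell with ibrutinib in Nalm6, and 20.3% and 21.3% in Sem. The ibrutinib effect was lower in Sem than in Nalm6 for 8 of the 10 and higher for 0. Of all genes tested, 13.7% differed between the lines in this effect, in either direction. PCK2 rose with ibrutinib in Nalm6 as well, and ASNS and GOT1 did not pass that test.

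Around the transaminases, 5 of 6 tested genes of the malate-aspartate shuttle and mitochondrial carriers fell with asparaginase in Nalm6 (0 rose; 28.1% of all genes fell), and in Sem 3 fell and 1 rose (15.1% of all genes fell). With the combination all 6 fell in each line, where 31.2% and 26.3% of all genes fell. MDH2, mitochondrial malate dehydrogenase, went from 53.0 to 33.6 FPKM with asparaginase in Nalm6 (log2 change -0.64 ± 0.08, limma adjusted p = 7.6e-05) and from 69.9 to 59.0 in Sem (-0.24 ± 0.04, adjusted p = 0.00081). SLC25A12, an aspartate-glutamate carrier, was the shuttle gene that rose in Sem (0.23 ± 0.07, adjusted p = 0.027). SLC25A13, the other such carrier, fell in both lines, from 5.27 to 3.08 FPKM in Nalm6 and from 9.63 to 7.18 in Sem.

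The anaplerosis and gluconeogenesis list had 5 of 6 tested genes lower with asparaginase in Nalm6 and 5 of 8 in Sem, with 0 higher in either line (28.1% and 15.1% of all genes fell). ME2, mitochondrial malic enzyme, went from 12.8 to 7.44 FPKM in Nalm6 and CS, citrate synthase, from 45.9 to 29.9. No gene of that list rose, whereas PCK2 rose in both lines. Of the other alanine, aspartate and glutamate genes, 3 rose and 9 fell of 16 tested in Nalm6, and 4 rose and 4 fell of 16 in Sem, beside 28.3% and 11.4% of all genes that rose and 28.1% and 15.1% that fell. RIMKLA, which joins N-acetylaspartate to glutamate, fell in Nalm6 from 2.86 to 1.37 FPKM, and GFPT1, of hexosamine synthesis, rose in Sem from 16.4 to 23.6.

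Among the other arginine and urea cycle genes few were expressed, with 4 of 10 tested in Nalm6 (1 rose and 2 fell with asparaginase) and 3 of 10 in Sem (1 rose). SLC7A1, the cationic amino acid transporter, rose in both, from 33.6 to 48.0 FPKM in Nalm6 (log2 change 0.50 ± 0.08, limma adjusted p = 0.00039) and from 26.6 to 47.8 in Sem (0.82 ± 0.04, adjusted p = 2.2e-07). CPS1, mitochondrial carbamoyl phosphate synthetase, stood at 4.65 FPKM untreated and 4.45 with asparaginase in Nalm6 (adjusted p = 0.54). Of the 6 tRNA synthetases, 2 rose and 3 fell with asparaginase in Nalm6, and 3 rose and 1 fell in Sem. Of all genes tested, 28.3% rose and 28.1% fell in Nalm6, and 11.4% and 15.1% did so in Sem. AARS, which charges alanine tRNA in the cytosol, rose from 52.0 to 89.5 FPKM in Nalm6 and from 57.3 to 96.5 in Sem. NARS, which charges asparagine tRNA, rose in Sem from 55.6 to 74.2 FPKM (0.41 ± 0.03, adjusted p = 1.3e-05).

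**Figure D4:**
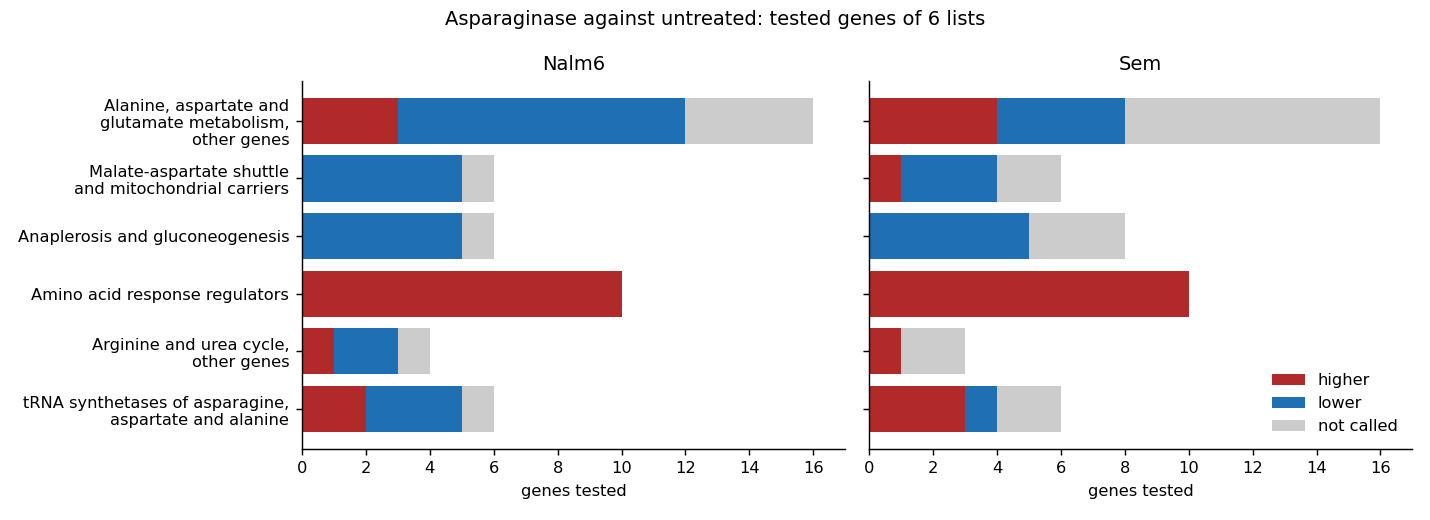
Number of tested genes (x axis) that were higher, lower or not called with asparaginase against untreated cells, in 6 lists of related genes (y axis), for Nalm6 and Sem. The 10 amino acid response regulators were all higher in both lines, and no gene of the anaplerosis list was higher.

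The genes whose patterns were most like each member's were found by Pearson's r over the 24 libraries on log2(FPKM + 1), after taking away each line's mean, so r describes shared treatment patterns in libraries that also share depth and composition. ASNS was most like STC2, SESN2 and SLC6A9 (r = 0.98, 0.97 and 0.96), and PCK2 most like SESN2, CEBPG and SLC3A2 (0.96 each). GPT2 was most like PHGDH, PSAT1 and PLXNA1 (0.98, 0.96 and 0.96), the first 2 being enzymes of serine synthesis. GOT2 was most like PKM, LDHA and YBX1 (0.99 each), the first 2 being glycolytic enzymes. GOT1 was most like TXNIP, HLA-DPB1 and TCEA1 (0.99, 0.97 and 0.97), PC most like INF2, POLD1 and TBCD (0.96 each) and ASL most like MFSD10, NPW and IRF3 (0.88, 0.88 and 0.87). For ASS1, whose pattern rests on its decimal place and on Nalm6, no such genes are named. Among the members themselves, ASNS and PCK2 were the most alike (r = 0.90), and GOT2 went with PC (0.86) and against PCK2 (-0.75).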

How the data were processed

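RNA-seq values of 24 libraries (2 lines, 4 treatments, 3 libraries each) were analysed. The deposited values were FPKM per gene, made by the authors on hg38; the submitters' processing notes name fastp, featureCounts and STAR without a version; other steps, including multi-mapping and strand, are not given in the sources used here. All 299165 deposited values of 1 or more had lost their decimal point; 206596 values below 1 were intact, and each times gene length was a whole multiple of 1 step per library (largest deviation 9.1e-13 reads). The powers of 10 that gave whole reads in all 12 libraries of a line were scored with Student t priors (5 degrees of freedom; log10 scales 0.07 for replicates, 0.1 for ibrutinib, 0.13 for asparaginase and 0.08 for the interaction) and a fixed penalty on levels above those of neighbouring rows. The posterior was below 0.99 for 345 restored values; ASS1 was the member whose place depended on that penalty. The restoration without that penalty and the limma test were run on simulated data. The penalty, and with it the place of ASS1, was not tested in this way. Gene starts and ends matched GENCODE 29 for all 58735 genes.

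Genes with at least 1 FPKM in at least 3 of the libraries fitted entered a two-sided limma-trend test (limma 3.58.1, R 4.3.3) of log2(FPKM + 1). P-values were adjusted by Benjamini-Hochberg over every gene in the fit: 13237 in Nalm6 and 13417 in Sem (12 libraries each), and 15116 for differences between the lines (24 libraries). The threshold for a call was an adjusted p of 0.05. In all, 16 comparisons were made. The filter passed 8 of the 9 members in Nalm6 and 7 in Sem: ASRGL1 failed in both and ASS1 in Sem. The recovered reads gave depth, and the floor of 3 reads covers counting error only. The members and the gene lists were chosen with earlier results of these data known; all members are named, and from a list up to 4 genes with the largest change in a comparison could be named. Alternatives were another pseudocount, no filter, TPM rescaling, quantile normalization, leaving out each library, a replicate block, ASS1 at the next power, both lines in 1 fit and, chosen after seeing the data, a correction for length and GC content and a fit without the 3 Nalm6 libraries that stood apart. No column of per-sample values was left unused (0).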

Additional observations from a re-analysis of the deposited data

Results flagged for a closer look

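The effects below differed between Sem and Nalm6 by a test of the difference itself (limma over all 24 libraries, Benjamini-Hochberg adjustment over 15116 genes). Values are the effect in Sem minus that in Nalm6 on the log2(FPKM + 1) scale, and no cause was tested. With asparaginase the difference was above 0 for GPT2 (1.12), GOT2 (0.69), PC (0.52) and ASNS (0.28). It was below 0 for ASS1 (-2.12), GOT1 (-0.67), PCK2 (-0.67) and ASL (-0.55). With the combination it was above 0 for GPT2 (1.24), PC (0.66), GOT2 (0.57) and ASNS (0.28), and below 0 for ASS1 (-1.29), GOT1 (-1.09), PCK2 (-0.66) and ASL (-0.63). The ibrutinib effect was lower in Sem for ASS1 (-1.09), PCK2 (-0.86) and GOT1 (-0.43). The ASS1 values rest on its inferred decimal place in untreated Nalm6 and on Sem libraries with at most 2 reads. The ASNS differences were lost with no filter (limma adjusted p = 0.077 with asparaginase and 0.068 with the combination). They were also lost with the length and GC correction (0.10 and 0.092). The 16 differences for genes other than ASS1 came from 7 genes in the same 24 libraries and share the untreated controls.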

How the results depend on the processing

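Of 122 tests of 8 genes (ASRGL1 was not tested), 87 kept their call under every alternative. The other 35 changed it under at least 1, in 123 of 2872 alternatives, and 7 reversed, all of ASS1. With untreated Nalm6 ASS1 10 times higher, its changes in Nalm6 were -1.89 with ibrutinib, -0.82 with asparaginase and -1.69 with the combination, the interaction was 1.03, and Sem minus Nalm6 was 1.89, 0.87 and 1.70 for the 3 treatments. The count of genes of the set called with ibrutinib in Nalm6 went from 3 to 5 with both lines in 1 fit and to 5 without the 3 Nalm6 libraries that stood apart, and so did that of the Nalm6 interaction (3 to 5 in each, without those libraries 4 lower and GOT2 higher). The Sem interaction went from 3 to 1 with no filter and to between 1 and 2 when single libraries were left out. Over all genes, the 1646 called with ibrutinib in Nalm6 became 1056 with no filter, 856 with quantile normalization, 2508 with both lines in 1 fit, 2570 with the length and GC correction, 3338 without the libraries that stood apart and 704 to 2222 leaving out 1 library. The Nalm6 interaction (738 genes) became 1359 in 1 fit, 1581 with the correction, 1598 without the libraries that stood apart and 429 to 974 leaving out 1. The Sem interaction (205) became 136 with no filter, 367 with TPM rescaling and 73 to 374 leaving out 1, and the Sem combination against ibrutinib (1624) 1045 to 1741. Leaving out 1 library leaves fewer samples; for the other settings the cause was not tested. Among libraries with the same replicate number, correlations of deviations were -0.176 to 0.336 in Nalm6 and -0.033 to 0.088 in Sem. The highest was in replicate 1 of Nalm6, and the labels do not state whether replicate numbers mark pairs. A replicate block changed 4 of 122 calls: the ASNS differences between the lines were lost (asparaginase 0.28, adjusted p = 0.055; combination 0.28, 0.051), and ASS1 (combination against ibrutinib 0.21, 0.045) and GOT1 (interaction -0.38, 0.048) in Nalm6 were gained. Read counts were small for ASNS, at most 2 per library for ASS1 in Sem and 0 for ASRGL1, which limits what could be seen.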
